A study of Mus musculus with 24 samples.

Results

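The change of the hypoxia effect between 4 h and 16 h of reoxygenation was measured in mouse retina as a difference of differences on the log2 scale. For every probe set, which combines several oligonucleotides for a transcript into 1 signal, the difference between hypoxic and normoxic retinas at 16 h was taken and the same difference at 4 h was subtracted. The comparison used 12 of the 24 arrays of the series, 3 in each of 4 groups, and 45037 of the 45101 probe sets, all except 64 controls. The retinas came from BALB/c mice that shared the leucine variant of Rpe65, the isomerase of the visual cycle. Hypoxic mice had breathed 6% oxygen for 6 h and then room air in darkness for 16 h or 4 h, and normoxic control mice were handled in parallel and killed when the hypoxic mice were. Retinas of 3 mice were pooled for every array, and whole retina does not separate its cell types. The contrast asks which transcripts answered the preceding hypoxia differently at the later and at the earlier stage of reoxygenation, stages at which the study also examined protection from light damage.

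Low oxygen stabilises the transcription factor HIF-1, which turns on genes for glucose uptake, glycolysis, vessel growth and cell survival, and reoxygenation returns the factor to degradation within a short time. Transcripts made during hypoxia then decay at their own rates, while stress hormones, protein folding stress and glial activation can set off further transcription after oxygen is back. In the retina, Mueller glia respond to such stress with metallothioneins and reactive markers, and photoreceptors and inner neurons signal through glutamate receptors and calcium channels at the ribbon synapse.

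The array medians lay between 5.79 and 5.84 on the log2 scale and the closest pair of arrays correlated at 0.997, so that none was deposited 2 times. A probe set was tested when the mean of at least 1 of the groups compared reached a log2 signal of 6.69, the lowest point between the peaks of low and high signals. Arrays give no counts, and the number of pools limits the precision. The retina was present as labelled, with the mean log2 level of 14 tested rod photoreceptor markers between 13.04 and 13.21 in the 12 pools. Lens and retinal pigment epithelium markers were also above the threshold and differed between pools, and their values are given with the marker lists.

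The hypoxia effect differed between 16 h and 4 h for 23 of 18820 probe sets tested (0.122%, limma with Benjamini-Hochberg adjustment). The change was above 0 for 12 of them, 0.0638% of those tested, and below 0 for 11, 0.0584%. Each direction held 10 named genes, and 1 probe set of the first direction has no gene in the annotation. The median change over all probe sets tested was -0.00 on the log2 scale, and 1515 reached an unadjusted p under 0.05. The changes below 0 were led by Kif4, Mt1 and Pros1, which were higher in hypoxic than in normoxic retinas at 4 h, and those above 0 by Grm8, Cacna2d4 and Grm7, of which the receptors were lower there. Fits that left out 1 array of the contrast called 12 to 26, the fewest without normoxia 4 h replicate 3. In bulk tissue, fewer cells of a type and less RNA per cell cannot be told apart.

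The effects behind these changes lay mostly at 4 h. The hypoxia effect itself was called for 0 of 18423 probe sets at 16 h (0%), where 1172 reached an unadjusted p under 0.05 and an unmoderated model on the 6 arrays of this time also gave 0 calls, and for 264 of 18498 at 4 h (1.43%), a count of 81 without hypoxia 4 h replicate 1. Of the 23 probe sets whose effect changed, 22 had the smaller effect at 16 h, against 57.9% of all probe sets tested, and 20 had opposite signs at 16 h and 4 h, against 43.4%. The median size of their effect was 0.15 at 16 h and 0.71 at 4 h on the log2 scale, against 0.08 and 0.10 over all tested. Hypoxic and normoxic pools did not overlap for 7 of the 23 at 16 h, beside 11.0% of all probe sets tested, and for all 23 at 4 h, beside 27.0%. These counts describe probe sets chosen by the same contrast and carry no test. Just inside the threshold lay Xbp1 and St8sia1, with adjusted p of 0.0429 and 0.0484, and just outside it Cux2 and Cmtm5, with 0.0528 and 0.0547.

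**Figure D1:**
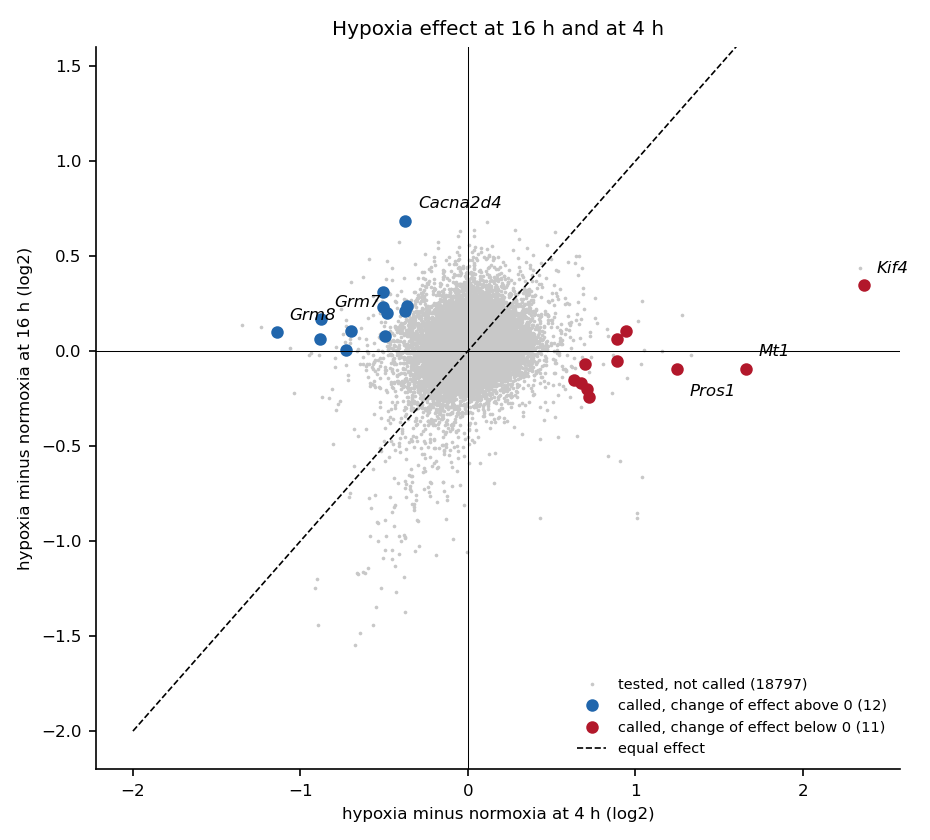
Hypoxia minus normoxia at 16 h (vertical axis, log2) against the same difference at 4 h (horizontal axis, log2) for the 18820 probe sets tested, each point a probe set and the dashed line equal effects. The 23 called probe sets lie off the dashed line, with effects at 16 h between -0.24 and 0.31 apart from Cacna2d4 at 0.69 and Kif4 at 0.34.

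Kif4, a chromokinesin that shapes condensed chromosomes and the spindle midzone in dividing cells, had the largest change of those called. Its log2 signal was 5.74, 5.64 and 6.00 in hypoxic retinas at 16 h, against 5.58, 5.33 and 5.44 in normoxic retinas at 16 h. At 4 h it was 7.53, 7.73 and 8.07 in hypoxic retinas, against 5.51, 5.26 and 5.46 in normoxic retinas. Hypoxic pools lay above normoxic pools at both times, by a wide margin at 4 h only. The effect was 0.34 ± 0.17 at 16 h and 2.36 ± 0.17 at 4 h (log2, SE, n = 3 pools a group), a change of -2.02 ± 0.24 with an adjusted p of 0.000495 in limma. All 4 means except that of hypoxic retinas at 4 h were below the signal threshold, so that these differences are no exact ratios, the effect at 16 h was not tested by itself, and Kif4 entered the test through its high group alone. Among the 24 genes of the mitosis and cell cycle list, 18 were below the threshold in all groups and 5 were tested, of which Kif4 changed while the 4 others (Bub1b, Ccna2, Smc4 and Cdt1) had changes between -0.22 and 0.45 that did not pass.

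Mt1, a metallothionein that binds zinc and copper, was higher in hypoxic than in normoxic retinas at 4 h and overlapped them at 16 h. The log2 signal was 9.81, 9.71 and 9.86 in hypoxic retinas at 16 h, against 9.91, 9.97 and 9.78 in normoxic retinas at 16 h. The 4 h values were 12.16, 11.73 and 11.58 in hypoxic retinas, against 10.68, 10.14 and 9.67 in normoxic retinas, with no overlap and a wide spread of the normoxic pools. The effect was -0.09 ± 0.18 at 16 h and 1.66 ± 0.18 at 4 h, where hypoxic retinas were 3.16-fold higher, and the change was -1.75 ± 0.26 (log2, SE; adjusted p = 0.0048). The probe set ends in _s_at, a mark that its probes can match several transcripts of a family. A further probe set of Mt1 was below the signal threshold in all groups and was not tested. It went the other way, with a change of 0.52 and an effect of -0.41 at 4 h. Mt2, the neighbour of Mt1 on the chromosome, had a change of -1.04 that did not pass (adjusted p = 0.488), with 0.01 at 16 h and 1.05 at 4 h. Over the metallothionein and antioxidant list, 14 genes were tested, Mt1 changed, and 13 did not pass, among them Mt3 at -0.42.

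The promoters of these genes are shown because Kif4 and Mt1 had the largest changes among those that passed. Sequences are from RefSeq on build GRCm38.p6, from 250 bases before to 50 after the annotated start, 300 bases each, written 5′ to 3′. Capitals in Mt1 (chr8:94178839-94179138, plus strand) and Mt2 (chr8:94172368-94172667, plus strand) mark the core of the metal response element, TGCGCNC or TGCACNC, on either strand. Capitals in Kif4 (chrX:100625815-100626114, plus strand) mark the cell cycle homology region, TTTGAA or TTTAAA, on either strand.
Mt1: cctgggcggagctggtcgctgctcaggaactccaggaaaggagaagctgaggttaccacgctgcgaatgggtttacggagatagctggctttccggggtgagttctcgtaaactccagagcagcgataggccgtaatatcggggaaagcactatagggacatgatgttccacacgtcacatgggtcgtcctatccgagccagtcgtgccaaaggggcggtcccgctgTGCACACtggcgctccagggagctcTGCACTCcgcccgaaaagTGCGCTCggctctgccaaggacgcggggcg
Mt2: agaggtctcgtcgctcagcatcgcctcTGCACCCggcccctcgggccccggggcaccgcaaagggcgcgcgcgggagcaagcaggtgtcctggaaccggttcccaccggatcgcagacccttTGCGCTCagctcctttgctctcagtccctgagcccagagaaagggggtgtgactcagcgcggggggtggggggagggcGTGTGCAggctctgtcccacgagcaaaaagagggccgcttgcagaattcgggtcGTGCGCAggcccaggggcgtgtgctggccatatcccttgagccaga
Kif4: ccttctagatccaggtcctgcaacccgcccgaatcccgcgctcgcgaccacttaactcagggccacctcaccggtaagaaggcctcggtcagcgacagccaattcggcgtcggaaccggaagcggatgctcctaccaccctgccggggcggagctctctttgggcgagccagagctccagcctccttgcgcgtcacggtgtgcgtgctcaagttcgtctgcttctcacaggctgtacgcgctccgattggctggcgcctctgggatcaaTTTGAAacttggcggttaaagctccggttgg

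The Mt1 window held 3 metal response element cores, 1 of them upstream of the start, and that of Mt2 held 4, 3 of them upstream. Such a core was found in 25.7% of all 32851 promoters in the table, and this motif was searched for after the values had been seen. The Kif4 window held 1 cell cycle homology region, downstream of the start, a motif found in 27.6% of promoters. Cores of the hypoxia response element, ACGTG or GCGTG, stood 2 times in the Mt1 window and 1 time in that of Kif4, and 43.8% of all promoters held at least 1. Promoters were given for 18 of the 20 genes with a changed effect, and some genes have several. A hypoxia response element core was found in 12 of the 18 genes, against 46.7% of the 27025 genes of the table, a cell cycle homology region in 4, against 30.6%, and a metal response element core in 9, against 28.2%. The cyclic AMP response element core TGACG was found in 6, against 23%, the sterol element part TCACNCCAC in 2, Grm8 and Camk1d, against 1.44%, and the E-box CACGTG, which contains ACGTG, and the heat shock pair GAANNTTC in 0, against 8.09% and 9.04%. All were searched on both strands, and a match describes letters only.

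Pros1 encodes protein S, a cofactor of anticoagulation and a ligand of the receptors by which pigment epithelium engulfs outer segments. Its log2 signal was 6.67, 6.89 and 6.35 in hypoxic retinas at 16 h and 6.49, 6.98 and 6.72 in normoxic retinas at 16 h. After 4 h it was 8.01, 7.99 and 7.80 in hypoxic retinas, against 6.69, 7.04 and 6.31 in normoxic retinas, and only here were the pools apart. The means of 2 of the 4 groups were below the signal threshold. The change was -1.34 ± 0.24 (log2, SE; adjusted p = 0.0186), from an effect of -0.09 at 16 h and one of 1.25 at 4 h. The call was lost in 6 of the 12 fits that left out 1 array, where the adjusted p reached at most 0.0717. The median change of the pigment epithelium markers was also below 0, at -0.67, and their part in this result was not tested.

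Camk1d, a calcium and calmodulin dependent kinase, changed on 2 probe sets. On the brighter one the log2 signal was 9.99, 10.04 and 10.01 in hypoxic retinas at 16 h, against 9.98, 9.93 and 10.30 in normoxic retinas at 16 h. At 4 h it was 10.99, 11.04 and 11.21 in hypoxic retinas, against 10.11, 10.44 and 10.04 in normoxic retinas. The pools overlapped at 16 h and were apart at 4 h, where hypoxic retinas were 1.85-fold higher on both probe sets. The changes were -0.94 ± 0.15 (adjusted p = 0.0054) and -0.83 ± 0.15 (adjusted p = 0.0147) on the log2 scale.

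Acadm, the medium chain acyl-CoA dehydrogenase of fatty acid oxidation, was higher in hypoxic than in normoxic retinas at 4 h by close to 1 on the log2 scale. The log2 signal was 11.25, 11.21 and 11.01 in hypoxic retinas at 16 h, against 11.20, 11.04 and 10.91 in normoxic retinas at 16 h. The 4 h values were 11.83, 11.55 and 11.76 in hypoxic retinas, against 10.79, 10.77 and 10.74 in normoxic retinas, a 1.92-fold difference. The pools overlapped at 16 h only, and the change was -0.83 ± 0.13 (adjusted p = 0.0055). Normoxic retinas were 0.28 higher at 16 h than at 4 h, which did not pass (adjusted p = 0.0881).

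The 5 other genes with a change below 0 all had hypoxic pools above normoxic pools at 4 h and overlapping pools at 16 h. They were the phosphate transporter Slc20a2 (-0.91), the ganglioside GD3 synthase St8sia1 (-0.96), the lysosomal sulfatase Arsg (-0.84), the membrane carbonic anhydrase Car14 (-0.79) of Mueller glia and pigment epithelium, and the RNA-binding protein Pcbp2 (-0.77). Their effects at 4 h lay between 0.64 for Car14 and 0.72 for St8sia1, and those at 16 h between -0.24 for St8sia1 and -0.07 for Pcbp2. St8sia1 differed from the others in its arms, since its log2 signal was 7.45, 7.39 and 7.11 in hypoxic retinas at 16 h and 7.56, 7.34 and 7.43 in hypoxic retinas at 4 h. In normoxic retinas it was 7.40, 7.84 and 7.43 at 16 h, against 6.62, 6.90 and 6.65 at 4 h, so that the low group was the normoxic pools of 4 h. Of the other tested probe sets of the 5 genes, none passed, and all had changes below 0, from -0.70 for St8sia1 to -0.12 for Pcbp2.

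Grm8 and Grm7, metabotropic glutamate receptors that restrain transmitter release at presynaptic terminals, were among the largest changes above 0. The log2 signal of Grm8 was 8.02, 8.03 and 7.90 in hypoxic retinas at 16 h, against 7.86, 8.06 and 7.74 in normoxic retinas at 16 h. After 4 h it was 6.91, 7.13 and 7.07 in hypoxic retinas, against 7.97, 8.19 and 8.36 in normoxic retinas. Hypoxic pools were thus apart from normoxic pools at 4 h only, where they were 2.21-fold lower, and the change was 1.24 ± 0.18 (log2, SE; adjusted p = 0.0048).

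Grm7 had log2 signals of 8.44, 8.77 and 8.41 in hypoxic retinas at 16 h, against 8.36, 8.29 and 8.47 in normoxic retinas at 16 h. At 4 h they were 7.59, 7.45 and 7.27 in hypoxic retinas, against 8.26, 8.38 and 8.28 in normoxic retinas. The change was 1.04 ± 0.16 (adjusted p = 0.0054), with 1.83-fold lower signals in hypoxic retinas at 4 h. Both receptors belong to a list of 11 tested synaptic receptors and channels, where 2 changed upward and 0 downward and 11 of 11 changes were above 0, with a median of 0.32 against -0.00 over all probe sets tested. The group I receptor Grm5 had a change of 0.71 (adjusted p = 0.537), the AMPA receptor subunits Gria1 and Gria2 had 0.32 and 0.38, and the glycine receptor subunits Glra2 and Glra3 had 0.49 and 0.27, none of which passed. Between 16 h and 4 h, 7 of the 11 passed as higher in hypoxic retinas and 0 passed in normoxic retinas, beside 7.49% and 4.11% of all probe sets tested that passed in either direction. Grm7 and Grm8 were in this list when it was made with earlier results known, so the list is not independent of them.

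**Figure D2:**
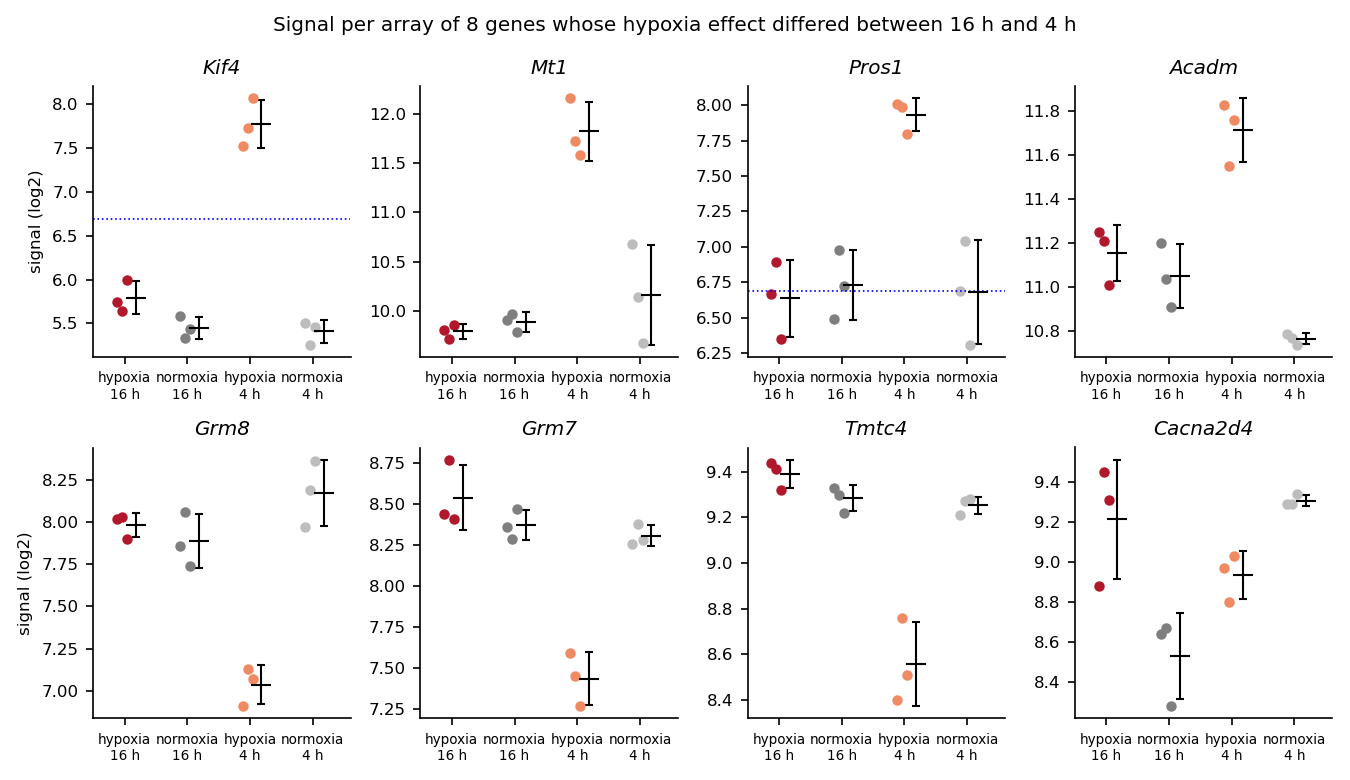
Log2 signal (vertical axis) of 8 genes in the 3 pools (points) of hypoxia 16 h, normoxia 16 h, hypoxia 4 h and normoxia 4 h, with mean and SD (black bars) and the signal threshold of 6.69 (dotted) where it falls in range. In 7 of the panels the hypoxic pools of 4 h stand apart from the 3 other groups, and in Cacna2d4 the normoxic pools of 16 h are lowest.

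Cacna2d4, an auxiliary calcium channel subunit of photoreceptor synapses, had the only called probe set whose effect was larger in size at 16 h than at 4 h. The log2 signal was 8.88, 9.45 and 9.31 in hypoxic retinas at 16 h, against 8.64, 8.67 and 8.28 in normoxic retinas at 16 h. At 4 h it was 8.97, 8.80 and 9.03 in hypoxic retinas, against 9.29, 9.29 and 9.34 in normoxic retinas. The pools were apart at both times, with hypoxic retinas above at 16 h and below at 4 h. The effect was 0.69 ± 0.14 at 16 h (adjusted p = 0.771) and -0.37 ± 0.14 at 4 h (adjusted p = 0.2), neither passing alone, and the change was 1.06 ± 0.20 (adjusted p = 0.0315). The difference between 16 h and 4 h was 0.28 in hypoxic retinas, which did not pass (adjusted p = 0.239), and -0.78 in normoxic retinas (adjusted p = 0.0082). Its other 2 probe sets, both brighter, had changes of 0.43 and 0.47 that did not pass (adjusted p = 0.47 for both). Their effects were smaller at 16 h, 0.01 and 0.09, than at 4 h, -0.42 and -0.38. The call was lost in 9 of the 12 fits that left out 1 array, with an adjusted p of up to 0.101.

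Xbp1, the transcription factor that is spliced in the unfolded protein response, was bright in all pools. The log2 signal was 11, 10.94 and 10.98 in hypoxic retinas at 16 h, against 10.64, 10.75 and 10.82 in normoxic retinas at 16 h. The 4 h values were 10.74, 10.66 and 10.72 in hypoxic retinas, against 11.02, 11.12 and 11.08 in normoxic retinas, so that the pools were apart at both times on opposite sides. The change was 0.60 ± 0.12 (adjusted p = 0.0429), and the call was lost in 11 of the 12 fits that left out 1 array, with an adjusted p of up to 0.157. Both other tested probe sets had changes of 0.72 and 0.69 (adjusted p = 0.0562 and 0.133). Of 23 tested genes of the unfolded protein response list, Xbp1 changed, 0 changed downward, and 19 changes were above 0 with a median of 0.15. The chaperone Hspa5 had a change of 0.55 (adjusted p = 0.105), and Sdf2l1, Calr and Manf had 0.61, 0.47 and 0.44, which did not pass.

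Tmtc4, an endoplasmic reticulum protein that adds mannose to cadherins, had hypoxic pools of 4 h well below all others. The log2 signal was 9.44, 9.41 and 9.32 in hypoxic retinas at 16 h, against 9.33, 9.30 and 9.22 in normoxic retinas at 16 h. After 4 h it was 8.40, 8.76 and 8.51 in hypoxic retinas, against 9.21, 9.27 and 9.28 in normoxic retinas. The change was 0.80 ± 0.13 (adjusted p = 0.0058), with hypoxic retinas 1.62-fold lower at 4 h.

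Exoc4, a subunit of the exocyst that tethers secretory vesicles, had log2 signals of 9.88, 9.97 and 9.93 in hypoxic retinas at 16 h, against 9.86, 9.91 and 10 in normoxic retinas at 16 h. At 4 h they were 8.88, 9.15 and 9.03 in hypoxic retinas, against 9.75, 9.72 and 9.78 in normoxic retinas. The pools overlapped at 16 h and were apart at 4 h, and the change was 0.74 ± 0.12 (adjusted p = 0.0076). Its other 3 tested probe sets had changes of 0.47 to 0.84, none of which passed.

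The 4 other named genes with a change above 0 were Itm2a, Marchf1, Cav2 and Negr1. Itm2a, an integral membrane protein, changed on 2 probe sets, by 0.81 and 0.73, the membrane-bound ubiquitin ligase Marchf1 by 0.69, the caveolin Cav2 by 0.59 and the neuronal adhesion protein Negr1 by 0.58. All had hypoxic pools below normoxic pools at 4 h, with effects between -0.51 for Itm2a and -0.37 for Cav2. At 16 h the hypoxic pools of Itm2a, Marchf1 and Cav2 lay above the normoxic pools, with effects of 0.20 to 0.31 that did not pass, and those of Negr1 overlapped. Marchf1 had a further probe set at -0.03, which did not follow the others. The probe set with no gene in the annotation had a change of 0.95 (adjusted p = 0.0048), with 5.84, 6.05 and 5.95 in hypoxic retinas at 4 h, below the threshold.

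The groups behind these changes were found by following each arm over time. In hypoxic retinas 1410 probe sets (7.49%) differed between 16 h and 4 h, 830 higher and 580 lower at 16 h, and in normoxic retinas 773 (4.11%) did, 320 higher and 453 lower. Both arms shared 264 of these probe sets, 18.7% of the hypoxic and 34.2% of the normoxic ones, all in the same direction. The counts moved with single arrays, to 450 in hypoxic retinas without hypoxia 4 h replicate 1, and to 79 in normoxic retinas without normoxia 16 h replicate 3, the array with the largest mean distance to the 11 others of 16 h and 4 h. Without that normoxic array the arms shared 57 probe sets, all in the same direction, which were 3.20% of 1779 hypoxic and 72.2% of 79 normoxic ones, and a fit of the 6 normoxic arrays alone called 30. Egr1, an immediate early transcription factor, was an example, whose signal at 16 h minus that at 4 h was -2.06 in hypoxic retinas and -1.70 in normoxic retinas, with a change of effect of -0.36 that did not pass. Nr4a1, also an immediate early gene, had -1.10 in hypoxic and -1.24 in normoxic retinas, with a change of effect of 0.14. Time of day, darkness and time since handling went along with the time point in both arms and cannot be told apart from it.

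Among the 23 probe sets with a changed effect, hypoxic retinas moved further than normoxic retinas in 20, against 54.2% of all tested. In the hypoxic arm 20 passed and in the normoxic arm 4, beside 7.49% and 4.11% of all tested. The 23 were chosen by the difference between the arms, so these counts carry no test. Mt1 and Kif4 had the largest differences, -2.03 and -1.98 in hypoxic retinas against -0.28 and 0.04 in normoxic retinas. Grm7 was 1.11 higher at 16 h in hypoxic retinas (adjusted p = 5.45e-06), against 0.07 in normoxic retinas. The 3 exceptions were Cacna2d4, St8sia1 and Xbp1, where hypoxic retinas moved by 0.28, -0.13 and 0.27 (none passing) and normoxic retinas by -0.78, 0.83 and -0.33 (all passing). Without normoxia 16 h replicate 3 the normoxic differences were -0.65, 0.89 and -0.38, of which only that of St8sia1 passed (adjusted p = 0.0618, 0.0143 and 0.074). Car14 passed in both arms, with -1.22 in hypoxic and -0.43 in normoxic retinas, and in the normoxic arm it did not pass without that array (-0.35, adjusted p = 0.199).

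**Figure D3:**
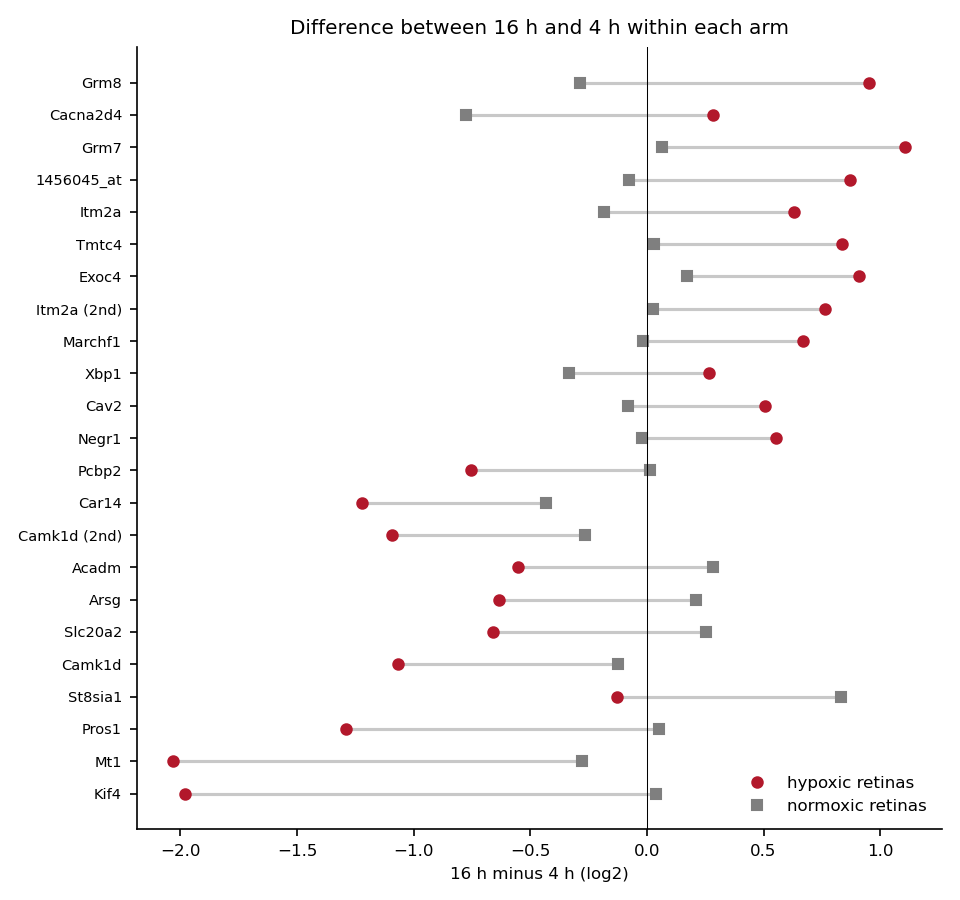
Difference between 16 h and 4 h (horizontal axis, log2) in hypoxic retinas (circles) and in normoxic retinas (squares) for the 23 probe sets whose effect changed, ordered by the change, which is the length of the grey line. Squares lie near 0 for most genes, and at -0.78, 0.83 and -0.33 for Cacna2d4, St8sia1 and Xbp1.

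The effect at earlier times is given as description. Kif4 had effects of 1.90, 2.11, 2.36 and 0.34 at 0, 2, 4 and 16 h, and Mt1 had 2.21, 2.17, 1.66 and -0.09, so both stood high from the end of hypoxia to 4 h. Camk1d had 0.89, 1.09, 0.89 and -0.05 on its brighter probe set, and Slc20a2 had 1.04, 0.87, 0.71 and -0.20. Acadm had 0.00, 0.31, 0.94 and 0.11, with its lowest value at 0 h. Of the 11 probe sets with a change below 0, 10 had passed at 0 h, where 32.4% of all probe sets tested did in either direction. Those 10 had a positive effect then, and the other was Acadm, at 0.00.

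Among the changes above 0, Grm7 had effects of -0.02, -0.15, -0.88 and 0.17 at 0, 2, 4 and 16 h, Grm8 had -0.25, -0.74, -1.14 and 0.10, and Exoc4 had 0.04, -0.35, -0.73 and 0.01. Negr1 had 0.07, 0.00, -0.49 and 0.08. Tmtc4 was lower earlier, with -0.54, -0.89, -0.70 and 0.10. Of the 12 probe sets with a change above 0, 3 had passed at 0 h and 9 at 2 h, where 16.6% of all probe sets tested did. The difference in course between the upward and the downward genes was not tested.

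**Figure D4:**
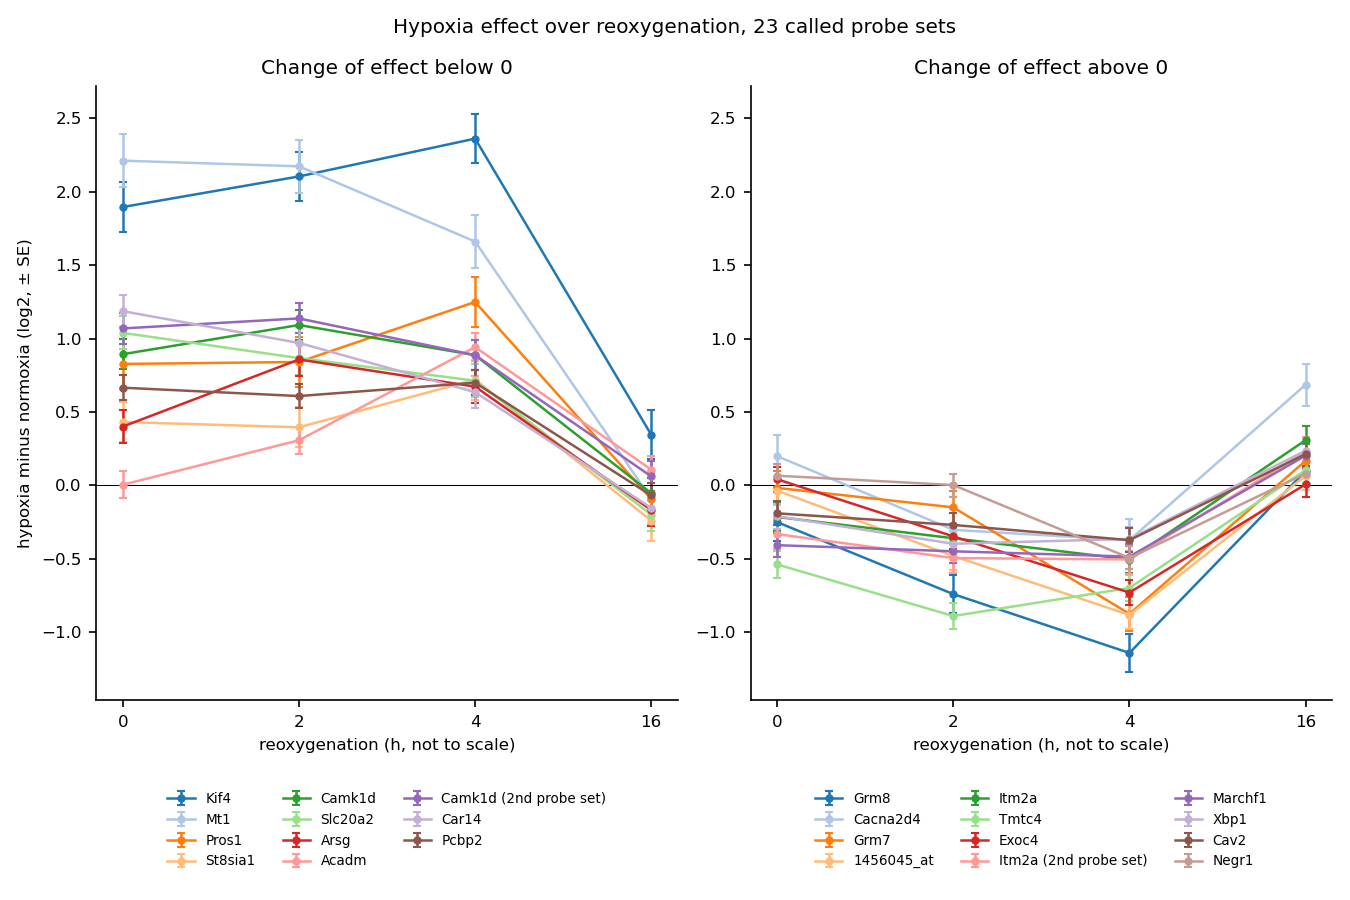
Hypoxia minus normoxia (vertical axis, log2, with SE) at 0, 2, 4 and 16 h of reoxygenation for the 11 probe sets with a change below 0 (left) and the 12 with a change above 0 (right). Kif4 and Mt1 stay above 1.5 until 4 h. On the right, Tmtc4 and Xbp1 have their lowest value at 2 h and all the others at 4 h.

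All 264 probe sets called at 4 h had a smaller effect at 16 h, beside 57.9% of all probe sets tested. By the test of the difference 22 of them changed, beside 0.122%. Choosing by a large effect at 4 h favours a smaller one at 16 h, so these counts carry no test. The 162 that were higher in hypoxic retinas at 4 h had a median effect of 0.05 at 16 h and of 0.48 at 4 h, and 107 of them (66.0%) were above 0 at 16 h, beside 57.8% of all probe sets tested. The 102 that were lower at 4 h had a median of -0.00 at 16 h and of -0.52 at 4 h. At 16 h 51 (50%) of them were below 0 and 51 (50%) above 0, beside the same 57.8% above 0. All 264 probe sets were chosen by their effect at 4 h. The test of that effect used the spread of all arrays in the fit, those of 16 h included. A fit of the arrays of 4 h alone called 62.

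Of the 20 genes with the largest effects at 4 h, 10 in each direction, Kif4, Mt1, Pros1, Acadm, Grm8 and Grm7 changed on the probe set concerned. Lcn2, a lipocalin of reactive glia and of the acute phase, had an effect of 0.44 at 16 h and of 2.34 at 4 h, nearly as large as that of Kif4, yet its change of -1.91 ± 0.51 did not pass (adjusted p = 0.187). Its hypoxic pools at 4 h were spread, with log2 signals of 9.50, 8.15 and 7.61, against 6.29, 6.21 and 5.73 in normoxic retinas at 4 h. At 16 h they were 6.89, 6.45 and 6.00 in hypoxic retinas, against 5.74, 6.25 and 6.04 in normoxic retinas.

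Ak4, a mitochondrial adenylate kinase and HIF-1 target, had the largest downward effect at 4 h. Its log2 signal was 8.42, 8.56 and 8.31 in hypoxic retinas at 16 h, against 7.88, 8.45 and 8.55 in normoxic retinas at 16 h, and the pools overlapped. At 4 h it was 7.29, 7.61 and 7.61 in hypoxic retinas, against 8.58, 9.06 and 8.91 in normoxic retinas. The change of 1.48 ± 0.31 did not pass (adjusted p = 0.0604), nor did that of its brighter probe set, 1.36. The brighter probe set passed under a stricter signal filter (adjusted p = 0.0487), quantile normalization (0.0452), array quality weights (0.0469) and in a fit of the 12 arrays alone (0.0433).

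The remaining upward genes at 4 h were Obox6, Pglyrp1, Antxr2, Pdzph1 and Camk2d, with effects of 0.95 to 1.33 at 4 h and of -0.14 to 0.19 at 16 h. The remaining downward genes were Nckap5, the proteoglycan Gpc6, Cmtm5, 2810030D12Rik, Olfm4, the potassium channel Kcnd2 and a further probe set of Exoc4, with effects between -1.06 and -0.73 at 4 h and between -0.22 and 0.22 at 16 h. None of these passed in the change of effect, where Cmtm5 came nearest, at 0.93 with an adjusted p of 0.0547.

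The gene lists were described by counts and medians, beside the median of -0.00 and the 0.122% called over all probe sets tested. HIF-1 targets had 17 of 20 genes tested, of which 0 changed and 14 had a change above 0, with a median of 0.26. The medians of their effects were 0.02 at 16 h and -0.23 at 4 h, and by brightness Bnip3 and Ndrg1 had changes of -0.05 and -0.00. Glycolysis and glucose uptake had 21 of 23 genes tested and 0 changed, with a median of 0.14, and its brightest members Aldoa and Pkm had -0.13 and -0.13. The entry Gpi1 was matched through a shared name to Pigq, a different gene with a change of -0.03, which the count and the median include. In cholesterol synthesis and uptake, with 19 of 24 genes tested, 0 changed, 16 changes were above 0 and the median was 0.17. Between 16 h and 4 h, 9 of these 19 passed as higher in hypoxic retinas, beside 830 of all 18820 probe sets tested (7.49% passed in either direction). Among the 9 were Hmgcs1, the enzyme that feeds the mevalonate pathway (0.60), and Idi1 (0.61). In normoxic retinas 0 of the 19 passed, beside 4.11% in either direction.

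The reactive glia and Lif-Stat3 list had 10 of 14 genes tested, of which 0 changed, and 10 of 10 changes were below 0 with a median of -0.55. The median effect was -0.02 at 16 h and 0.53 at 4 h. Lcn2, Osmr, A2m and Socs3 reached the signal threshold in hypoxic retinas at 4 h alone. For these genes the filter favoured a change below 0, so the count and the medians are not independent of it. Besides Lcn2, the endothelin Edn2 had a change of -1.16, the protease inhibitor Serpina3n -0.63, the transcription factor Cebpd -0.59 and the oncostatin receptor Osmr -0.85, while the brightest members, the filament protein Vim and Stat3, had -0.34 and -0.26. The difference between 16 h and 4 h in hypoxic retinas was below 0 for all 10 and passed for 4 (Lcn2, Edn2, Serpina3n and Cebpd). Beside this, 580 of all 18820 probe sets tested passed as lower (7.49% in either direction). In normoxic retinas 0 of the 10 passed, beside 4.11% in either direction. Pigment epithelium and lens markers also had changes below 0 in the median, and their part in these values was not tested.

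In the remaining functional lists few genes changed. Cytosolic heat shock had 0 of 15 tested genes changed, 13 above 0 and a median of 0.14, with Cryab at -0.35 and Hsp90aa1 at 0.08. Glucocorticoid-induced genes had 15 tested, of which Mt1 changed, and a median of 0.15. The p53 targets and growth arrest genes had 0 of 12 changed and a median of -0.01, with Ccng1 at 0.01 and Btg2 at 0.19, and the Bcl2 family had 0 of 9 changed and a median of -0.05, with Mcl1 at -0.05. Immediate early genes had 0 of 12 changed and a median of 0.09, with Ier3 at 0.07 and Fos at 0.02, and the circadian clock had 0 of 17 changed and a median of 0.11, with Rorb at 0.17 and Dbp at 0.19. The metallothionein and antioxidant list and the mitosis list had medians of -0.07 and -0.11.

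**Figure D5:**
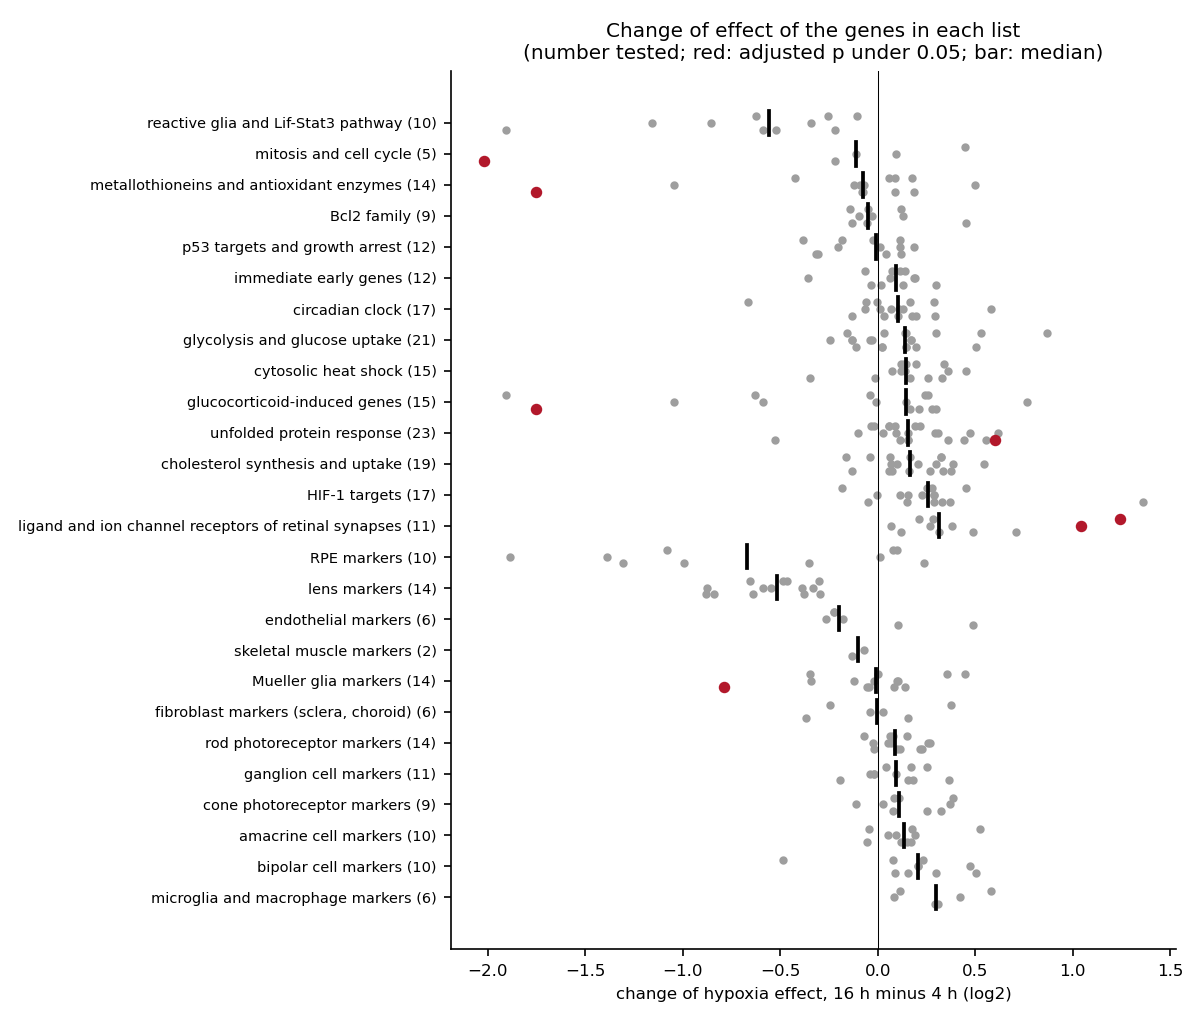
Change of the hypoxia effect, 16 h minus 4 h (horizontal axis, log2), of each tested gene in 14 functional lists (upper rows) and 12 cell type marker lists (lower rows), with called genes in red and list medians as black bars. Reactive glia, pigment epithelium and lens lists have the lowest medians, -0.55, -0.67 and -0.52, and the synaptic receptor list the highest functional one, 0.32.

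Among the cell type markers only Car14, a Mueller glia marker, changed. The medians of the neural and glial lists were 0.09 for rods, 0.11 for cones, 0.20 for bipolar cells, 0.13 for amacrine cells, 0.09 for ganglion cells and -0.01 for Mueller glia. The cone phosphodiesterase subunit Pde6h had a change of 0.37 (adjusted p = 0.196). Endothelial markers had a median of -0.20 over 6 tested genes, microglia and macrophage markers 0.30 over 6, fibroblast markers -0.01 over 6 and skeletal muscle markers -0.10 over 2, with 0 changed in each. None of 5 erythroid markers on the array reached the threshold.

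Lens and pigment epithelium markers differed between pools of a group, and 0 of them changed. All 14 tested lens markers had a change below 0, with a median of -0.52. Their mean log2 level was 10.61, 12.07 and 10.42 in hypoxic retinas at 16 h, against 12.28, 12.34 and 11.52 in normoxic retinas at 16 h, and 11.11, 12.17 and 11.92 in hypoxic retinas at 4 h, against 12.45, 11.97 and 12.18 in normoxic retinas at 4 h. Of 10 pigment epithelium markers, 6 had a change below 0 and 4 a change above 0, with a median of -0.67. Ttr, a carrier of retinol and thyroid hormone, had -1.89, Rgr -1.39 and Rpe65 -1.31, none passing. The brightest members, Rlbp1 and Otx2, had 0.10 and 0.08. The mean level of the 10 markers was 7.80, 8.44 and 8.28 in hypoxic retinas at 16 h, against 8.53, 8.67 and 8.17 in normoxic retinas at 16 h, and 9.07, 8.80 and 8.38 in hypoxic retinas at 4 h, against 8.72, 8.40 and 8.0 in normoxic retinas at 4 h. In both lists the hypoxic and normoxic pools overlapped at both times. Whether these tissues had a part in any change above was not tested.

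Of the 23 calls, 11 were made in all 12 fits that left out 1 array of the contrast. These were Kif4, Mt1, Grm8, Grm7, Pcbp2, Acadm, Tmtc4, Exoc4, the unnamed probe set and 1 probe set each of Camk1d and Itm2a. Marchf1 lost its call without hypoxia 4 h replicate 1 (adjusted p = 0.0503). Slc20a2 lost it without hypoxia 4 h replicate 2, normoxia 4 h replicate 1 or normoxia 4 h replicate 3 (0.0528, 0.0517 and 0.0599), and the other probe set of Camk1d in 4 of the fits. The 9 others, Pros1, Arsg, Cacna2d4, Negr1, Cav2, Car14, Xbp1, St8sia1 and the other probe set of Itm2a, lost it in 6 to 11 fits. All 23 kept their direction in each of these fits.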

How the data were processed

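Pooled retinal RNA was hybridised to Affymetrix arrays, 1 pool an array. The authors deposited log2 signals made with RMA, a background correction, normalization and summary of probes, whose version is not given in the sources used here. GCRMA values, on which the paper's lists rest, were not used.

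One limma model (version 3.58.1, R 4.3.3) with 8 group means was fitted to all 24 arrays, which gave 16 residual degrees of freedom, with eBayes moderation and Benjamini-Hochberg adjustment over the probe sets tested, and calls were made at an adjusted p under 0.05. The 4 h, 16 h, hypoxic and normoxic differences are contrasts of the same fit. The fit was tested on simulated data. P-values measure the spread between pools, and replicate numbers were not taken as pairs.

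Of 45037 probe sets, 34945 carry 1 gene symbol, 932 several and 9160 none, and only those with 1 are named. Members and lists were chosen with earlier results of these data known. The 14 functional and 13 marker lists are those of the text, with the brightest probe set of a gene. Named genes are called genes (up to 15 a direction), up to 4 called or the 2 brightest of a list, and the 10 largest effects a direction at 4 h. Other list members, and Egr1 and Nr4a1, were named after their values were seen.

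Alternatives were no or a stricter signal filter, quantile normalization, median centring, trended and robust spread, array weights, replicate blocks, no _x_at or _s_at probe sets, the contrast's arrays alone, an unmoderated model on the contrast's arrays, an adjusted p under 0.1, all probe sets of a gene, and each array of the contrast left out. Leaving out normoxia 0 h replicate 2 and normoxia 16 h replicate 3 together was chosen after seeing the data.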

Additional observations from a re-analysis of the deposited data

Results flagged for a closer look

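The hypoxia effect differed between 16 h and 4 h, by limma's test of the difference itself, for the following probe sets, all given as the effect at 16 h minus that at 4 h on the log2 scale. Below 0 were Kif4 (-2.02), Mt1 (-1.75), Pros1 (-1.34), St8sia1 (-0.96), Camk1d on 2 probe sets (-0.94 and -0.83), Slc20a2 (-0.91), Arsg (-0.84), Acadm (-0.83), Car14 (-0.79) and Pcbp2 (-0.77). Above 0 were Grm8 (1.24), Cacna2d4 (1.06), Grm7 (1.04), a probe set with no gene in the annotation (0.95), Itm2a on 2 probe sets (0.81 and 0.73), Tmtc4 (0.80), Exoc4 (0.74), Marchf1 (0.69), Xbp1 (0.60), Cav2 (0.59) and Negr1 (0.58).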

How the results depend on the processing

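The 23 changes of effect became 15 without a signal filter, 62 with a trended and robust spread, 57 with array quality weights, 7 in a fit of the 12 arrays of the contrast, 0 in the unmoderated model on those arrays and 46 at an adjusted p under 0.1. Leaving out 1 of those 12 arrays gave 12 to 26, with 14, 15 and 15 without hypoxia 4 h replicate 1, 2 and 3, and 15 and 12 without normoxia 4 h replicate 1 and 3. The 264 effects at 4 h became 485 with a trended and robust spread, 727 with array weights, 62 on the 6 arrays alone, 3 unmoderated on those arrays and 578 at an adjusted p under 0.1. With 1 of those 6 arrays left out they became 81 to 206 (81 and 130 without hypoxia 4 h replicate 1 and 3, 122 and 118 without normoxia 4 h replicate 1 and 3). The effects at 16 h stayed at 0 in every setting. The 1410 hypoxic differences became 2871 with array weights, 41 unmoderated, 2353 at an adjusted p under 0.1 and 450 to 1000 with 1 array left out (568 and 786 without hypoxia 16 h replicate 1 and 2, and 450, 810 and 855 without hypoxia 4 h replicate 1, 2 and 3). The 773 normoxic differences became 381 without a filter, 30 on the 6 arrays alone, 1 unmoderated, 1500 at an adjusted p under 0.1 and 66 without both arrays that stood far from the rest. With 1 normoxic array of 4 h or 16 h left out they became 79 to 1042 (79 without normoxia 16 h replicate 3, and 188, 315 and 155 without normoxia 4 h replicate 1, 2 and 3). A replicate block over all time points gave 26 changes of effect, 302 effects at 4 h, and 1512 hypoxic and 805 normoxic differences. A replicate block within each time point gave 6 changes of effect and 136 effects at 4 h. The paper made its pools in 3 repeats with controls treated in parallel. Whether equal replicate numbers mark the same repeat is not stated. Same-numbered hypoxic and normoxic arrays had correlations of deviations between -0.265 and 0.219, and 5 of 12 arrays correlated best with their own number. The block within each time point was not run for the hypoxic and normoxic differences, which span such blocks. Of 545 recomputed values for the 23 probe sets, 382 kept the call, 163 lost it and 0 turned direction, and 618 of 650 list medians stayed within 1 SD of the pools' list means. Signal over background limits low probe sets such as Kif4, and the cause of these shifts was not tested.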

Other observations

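Some genes came close to the threshold in the change of the hypoxia effect without passing it, and they were picked after their values were seen. Etnppl, an astrocytic and glial enzyme that breaks down phosphoethanolamine, had a change of -0.97 ± 0.20 (log2, SE; limma, adjusted p = 0.0604), with -0.30 at 16 h and 0.67 at 4 h. The calcium-permeable channel Trpc1 had -0.69 ± 0.15 (adjusted p = 0.0604), and the peroxiredoxin Prdx4 had -0.72 ± 0.15 (adjusted p = 0.0612). In the other direction the ephrin receptor Ephb1 had 0.66 ± 0.14 (adjusted p = 0.0667), with -0.00 at 16 h and -0.67 at 4 h.

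In the clock list, the repressor Cry1 had an effect of -0.03 at 16 h and of 0.63 at 4 h, where it passed (adjusted p = 0.0071), and a change of -0.67 ± 0.17 that did not pass (adjusted p = 0.154). Ciart, another repressor of the clock, was higher at 16 h than at 4 h in both arms, by 1.09 in hypoxic retinas and by 0.51 in normoxic retinas (log2), and its change of 0.58 did not pass (adjusted p = 0.33).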
